A study of Mus musculus with 15 samples.

Results

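The 9 genes described here build and break down glycogen in the liver. Gys2, Gbe1, Ugp2 and Gyg serve synthesis, Pygl, Phka2 and Phkg2 serve breakdown, and Ppp1r3c and Ppp1r3b encode subunits that bring protein phosphatase 1 to the glycogen particle. They were chosen by name: every non-control probe of the array whose gene name was one of the 9 was taken, and the probe with the highest mean signal stood for its gene. This gave 14 probes of 55681, and 9 of the 27548 genes or single-probe transcripts that were tested. All 14 probes lay well above background on all 15 arrays, so all 9 genes passed the filter on dim probes.

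Liver RNA of C57BL/6J mouse pups was read on single-colour arrays on postnatal day 1, with 1 array per pup. Pups called hypoglycaemic KO (n = 7) and normoglycaemic KO (n = 3) lacked the miR-379/miR-410 microRNA cluster on the maternal chromosome, and the wild-type pups (n = 5) were their littermates. The KO pups had been divided by blood glucose, and the design text speaks of severe hypoglycaemia in the 7 and of mild hypoglycaemia in the 3. The labels record no treatment. Glucose averaged 19.9 ± 9.34 mg/dl over the 7 hypoglycaemic KO pups, 48.0 ± 6.93 mg/dl over the 3 normoglycaemic KO pups and 58.6 ± 9.56 mg/dl over the 5 wild-type pups (mean ± SD). The sources used here give neither the bounds of the deletion nor the litter of each pup.

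A level is the log2 signal of a probe minus that of the 75th percentile of its array, so that 0 is the signal of that percentile, and a difference is one of mean levels. The level of Alb, the albumin gene that marks hepatocytes, ran between 9.65 and 10.08 over the 15 libraries, and the mean of 11 hepatocyte genes between 8.39 and 8.77. Mirg, the noncoding transcript that runs through the deleted cluster, read −3.02 to −1.23 in 6 hypoglycaemic KO libraries, −2.80 to −2.68 in normoglycaemic KO and 0.88 to 1.60 in wild-type libraries. At 0.66, the library labelled hypoglycaemic KO replicate 2 stood close to the wild-type values, which goes against its label. The mean level of 18 pancreas acinar genes was 1.997 in hypoglycaemic KO replicate 3, 4.91 in normoglycaemic KO replicate 2 and 1.84 in wild-type replicate 2, and below 0 in the other 12 libraries. These 3 libraries are called pancreas-rich below. Arrays lay on 2 slides, and each slide held libraries of all 3 groups.

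Glycogen is a branched polymer of glucose that the liver lays down before birth and draws on in the first hours of life, when the supply through the placenta ends. Glycogenin starts a chain, glycogen synthase lengthens it with glucose from UDP-glucose, and a branching enzyme adds side chains. Glycogen phosphorylase releases glucose 1-phosphate once phosphorylase kinase has activated it, while protein phosphatase 1, held on glycogen by its targeting subunits, activates the synthase and switches off the phosphorylase.

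Of the 9 genes, Ppp1r3c stood apart, with a lower level in hypoglycaemic KO livers than in the livers of both other groups. Ppp1r3c encodes the targeting subunit also known as protein targeting to glycogen. Its probe lies on chromosome 19, 36806457 to 36806516, minus strand (mm9). Because this gene carries the main difference, the 250 bases before its start site are shown, from RefSeq on GRCm38.p6, minus strand, chr19:36736605-36736854, with the one E-box (CACGTG, a hexamer bound by basic helix-loop-helix factors) in capitals.
Ppp1r3c promoter: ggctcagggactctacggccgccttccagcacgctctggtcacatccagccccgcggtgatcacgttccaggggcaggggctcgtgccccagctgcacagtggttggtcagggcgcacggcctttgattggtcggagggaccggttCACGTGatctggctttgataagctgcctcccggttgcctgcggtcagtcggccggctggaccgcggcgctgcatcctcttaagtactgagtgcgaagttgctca
The E-box begins 104 bases before the start site. It is a palindrome that reads the same on both strands, and 6.02% of 32851 promoter windows of the same length hold it. The window has a GC content of 64.4%, against a median of 52.4% over all windows. On both strands the window was also searched for a cAMP response element (TGACGTCA). The other motifs were a FOXO site (TGTTTAC), a glucocorticoid half-site spelled AGAACA, and a TATA box spelled TATAAA. None of these letters was in the window.

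In hypoglycaemic KO livers the Ppp1r3c level had a lowest value of −2.32, a median of −1.78 and a highest value of −0.29. In normoglycaemic KO livers it was 0.68, 1.02 and 0.99, and in wild-type livers −0.22, 0.65, 0.16, 0.24 and 1.22 in replicates 1 to 5. Every hypoglycaemic KO library thus lay below every library of the other groups, although the highest of them, replicate 4, came within reach of the lowest wild-type library. Group means were −1.59 ± 0.67 over 7 hypoglycaemic KO livers, 0.89 ± 0.19 over 3 normoglycaemic KO livers and 0.41 ± 0.55 over 5 wild-type livers (mean ± SD).

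Ppp1r3c fell by 2.48 on the log2 scale in hypoglycaemic KO against normoglycaemic KO livers, with a standard error of 0.37. This is a 5.58-fold lower signal (limma, adjusted p = 0.0442; 2-sided exact permutation test over 120 splits, p = 0.0167, the smallest they allow). It was the only one of the 9 genes called in that comparison, in which 0.0545% of all genes were called, and it ranked 5 of 27548 by p. Against wild type the difference was −1.997 with a standard error of 0.32, a 3.99-fold lower signal. It ranked 9 by p, and its adjusted p of 0.0527 by limma missed the threshold of 0.05 (2-sided exact permutation test over 792 splits, p = 0.00253, the smallest they allow). Here 0 of the 9 genes were called, against 0.0182% of all genes. Normoglycaemic KO livers differed from wild type by 0.48 with a standard error of 0.39 (adjusted p = 0.965), and 0 of the 9 genes and 0.0% of all genes were called in that comparison. The 2 comparisons with wild type share the wild-type libraries.

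The size of the Ppp1r3c difference between the KO groups held when single libraries were left out, between −2.70 and −2.36, but the call did not. It was kept without wild-type replicate 2, wild-type replicate 5 or hypoglycaemic KO replicate 4, and ended without any 1 of the other 12 libraries (highest adjusted p = 0.271, without normoglycaemic KO replicate 2). The fits that kept the call called 1.09%, 0.0508% and 3.44% of all genes, in that order. Against wild type the difference ran between −2.21 and −1.79, and it was called without wild-type replicate 1 (adjusted p = 0.0293), without the library labelled hypoglycaemic KO replicate 2 (adjusted p = 0.0264) and without hypoglycaemic KO replicate 4 (adjusted p = 0.00549). Of all genes, 2.72%, 0.501% and 1.99% were called in those fits, in the same order. Without the library labelled hypoglycaemic KO replicate 2 the difference between the KO groups was −2.45 (adjusted p = 0.0823). Without the 3 pancreas-rich libraries the differences were −2.36 between the KO groups (adjusted p = 0.340) and −1.87 against wild type (adjusted p = 0.271). Slide 1 held 4 hypoglycaemic KO, 2 normoglycaemic KO and 2 wild-type libraries, and slide 2 held 3, 1 and 3. Within slide 1 the differences were −2.44 between the KO groups (limma, adjusted p = 0.535) and −1.81 against wild type (adjusted p = 0.761). Within slide 2 they were −2.57 between the KO groups, against 1 normoglycaemic KO library, and −2.12 against wild type. In a bulk liver sample, fewer cells of a type and less RNA per cell cannot be told apart.

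**Figure D1:**
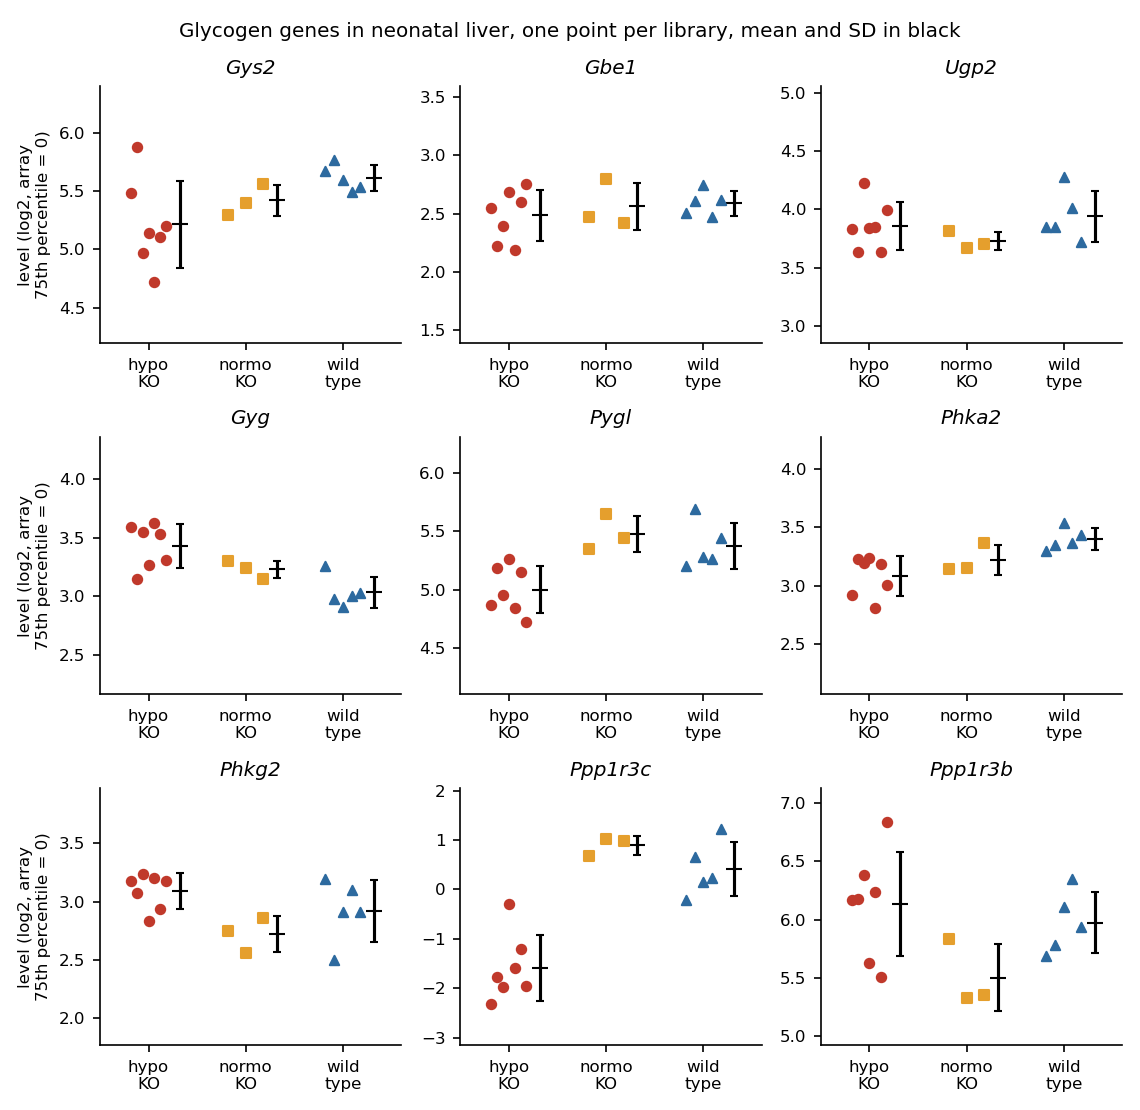
Levels of the 9 glycogen genes, in log2 units with the array's 75th percentile at 0, by group. Each point is 1 library, and the black marks are the mean and SD of hypoglycaemic KO (n = 7), normoglycaemic KO (n = 3) and wild-type libraries (n = 5). The Ppp1r3c axis spans a wider range than the others, and all 7 hypoglycaemic KO libraries lie below the other 8 there.

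Markers of other cells were set beside this result. All 12 granulocyte genes were above 0 in their difference between hypoglycaemic and normoglycaemic KO livers, with a median of 0.33, and 10 of 12 were above 0 against wild type, with a median of 0.28; 0 were called in either comparison. The mean level of that list ran between 4.20 and 4.65 in hypoglycaemic KO, 3.87 and 4.38 in normoglycaemic KO and 4.06 and 4.42 in wild-type libraries. The mean of 9 skeletal muscle genes ran between −4.00 and −3.37 in hypoglycaemic KO, −3.98 and −2.02 in normoglycaemic KO and −4.44 and −2.48 in wild-type libraries, with 5, 5 and 3 of the 9 above background on all libraries of the group. Of these muscle genes, 2 of 9 were above 0 between the KO groups, with a median difference of −0.57, and 4 of 9 against wild type, with a median of −0.06. The liver endothelial genes had positive differences as the granulocyte genes did, in 7 of 9 between the KO groups (median 0.17) and in 8 of 9 against wild type (median 0.17), with 0 called. The mean level of that list ran between 2.35 and 2.67 in hypoglycaemic KO, 2.27 and 2.45 in normoglycaemic KO and 2.10 and 2.54 in wild-type libraries. All 18 acinar genes had a negative difference between the KO groups, with a median of −1.26, and 10 of 18 a positive one against wild type, with a median of 0.01. Of the 11 hepatocyte genes, 2 were above 0 against wild type (median −0.07) and 4 between the KO groups (median −0.05). For 9 Kupffer and macrophage genes these counts were 3 (median −0.13) and 4 (median −0.13). For 11 erythroid genes they were 4 (median −0.01) and 6 (median 0.02). No gene of these lists was called in either comparison. The part of all these cells in the Ppp1r3c result was not tested beyond the values without the pancreas-rich libraries.

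Among the genes of synthesis, no difference between groups passed the test. Gys2, the liver form of glycogen synthase, lies on chromosome 6, 142371157 to 142371216 (mm9). Its level had a lowest value of 4.72, a median of 5.14 and a highest value of 5.88 in hypoglycaemic KO livers, against 5.30, 5.40 and 5.56 in normoglycaemic KO livers and 5.67, 5.76, 5.59, 5.49 and 5.54 in wild-type livers. The wild-type libraries were tightly grouped (SD 0.11, n = 5) and the hypoglycaemic KO libraries spread on both sides of them (SD 0.37, n = 7), since the library labelled replicate 2 was the highest of all 15. The difference from wild type was −0.40 with a standard error of 0.16 (limma, adjusted p = 0.195). A second Gys2 probe gave −0.42 (adjusted p = 0.163).

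Gyg encodes glycogenin, the protein that primes each glycogen molecule. Its level had a lowest value of 3.14, a median of 3.53 and a highest value of 3.62 in hypoglycaemic KO livers, against 3.30, 3.24 and 3.15 in normoglycaemic KO livers and 3.25, 2.97, 2.91, 3.00 and 3.03 in wild-type livers. All 7 hypoglycaemic KO libraries were above the wild-type mean, with wild-type replicate 1 inside their range. The difference from wild type was 0.40 with a standard error of 0.10, or 1.32-fold (limma, adjusted p = 0.0887). It was called without wild-type replicate 1 (0.46, adjusted p = 0.0396), without the library labelled hypoglycaemic KO replicate 2 (0.45, adjusted p = 0.0474) and without hypoglycaemic KO replicate 4 (0.43, adjusted p = 0.0488). These fits called 2.72%, 0.501% and 1.99% of all genes, in that order, against 0.0182% with all libraries. The second Gyg probe, which overlaps the first by most of its length, gave 0.42 (adjusted p = 0.0851). Gyg thus had the smallest adjusted p of the 4 genes of synthesis in this comparison, opposite in sign to Gys2. The 3 normoglycaemic KO libraries also lay above the wild-type mean, with a Gyg difference of 0.20 (limma, adjusted p = 0.965). Between the KO groups the Gyg difference was 0.20 (adjusted p = 0.347). At the second probe these differences were 0.25 (adjusted p = 0.965) and 0.16 (adjusted p = 0.424).

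Ugp2 makes UDP-glucose, the glucose donor of the synthase, and Gbe1 encodes the branching enzyme. The Ugp2 level was 3.86 ± 0.21 over 7 hypoglycaemic KO livers, 3.73 ± 0.08 over 3 normoglycaemic KO livers and 3.94 ± 0.22 over 5 wild-type livers (mean ± SD). The Gbe1 level was 2.48 ± 0.22 over 7 hypoglycaemic KO livers, 2.56 ± 0.20 over 3 normoglycaemic KO livers and 2.59 ± 0.11 over 5 wild-type livers (mean ± SD). The groups overlapped for both genes in every comparison. For hypoglycaemic KO against wild type the 95% confidence interval of the difference was −0.33 to 0.17 for Ugp2 and −0.34 to 0.13 for Gbe1. Differences of either sign within these bounds thus remain possible.

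The genes of breakdown gave small differences of mixed sign. Pygl, the liver glycogen phosphorylase, has its probe on chromosome 12, 71291855 to 71291914 (mm9), 39.7 Mb from that of Mirg. Its level had a lowest value of 4.73, a median of 4.96 and a highest value of 5.26 in hypoglycaemic KO livers, against 5.35, 5.64 and 5.45 in normoglycaemic KO livers and 5.20, 5.69, 5.28, 5.26 and 5.44 in wild-type livers. All 7 hypoglycaemic KO libraries lay below the 3 normoglycaemic KO libraries, whereas replicate 4, at 5.26, reached into the wild-type range. The difference was −0.48 with a standard error of 0.13 between the KO groups (limma, adjusted p = 0.105) and −0.37 with a standard error of 0.11 against wild type (adjusted p = 0.124). Between the KO groups Pygl was called without hypoglycaemic KO replicate 4 (−0.52, adjusted p = 0.0488), in a fit that called 3.44% of all genes. Its difference between these groups was −0.39 without the pancreas-rich libraries (adjusted p = 0.425).

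Phka2 and Phkg2 encode the regulatory alpha subunit and the catalytic gamma subunit of phosphorylase kinase in liver. The Phka2 level had a lowest value of 2.81, a median of 3.19 and a highest value of 3.23 in hypoglycaemic KO livers, against 3.14, 3.15 and 3.37 in normoglycaemic KO livers and 3.30, 3.35, 3.54, 3.37 and 3.43 in wild-type livers. The hypoglycaemic KO libraries all lay below the wild-type ones. The difference was −0.32 with a standard error of 0.09 (limma, adjusted p = 0.113; 2-sided exact permutation p = 0.00253). Phka2 is on the X chromosome, and Ddx3y, a Y-linked gene, was high in 2 of 7 hypoglycaemic KO, 2 of 3 normoglycaemic KO and 1 of 5 wild-type libraries. The second Phka2 probe gave −0.26 against wild type (adjusted p = 0.294). Phkg2 stood at 3.09 ± 0.15 over 7 hypoglycaemic KO livers, 2.72 ± 0.15 over 3 normoglycaemic KO livers and 2.92 ± 0.27 over 5 wild-type livers (mean ± SD). Its difference between the KO groups was 0.37 with a standard error of 0.14 (limma, adjusted p = 0.169), where that of Phka2 was −0.14 (adjusted p = 0.4995). For hypoglycaemic KO against wild type the Phkg2 difference was 0.17 (adjusted p = 0.458). The subunits thus differed in sign in both hypoglycaemic KO comparisons, and none of these differences passed. In normoglycaemic KO against wild type both were negative (Phka2 −0.18, Phkg2 −0.20).

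Across the 9 genes the median difference was −0.10 for hypoglycaemic KO against wild type, −0.18 for normoglycaemic KO against wild type and −0.08 between the KO groups, against 0.02, 0.01 and −0.01 over all genes. At an unadjusted p under 0.05 there were 5 of 9 for hypoglycaemic KO against wild type (1 higher and 4 lower), where 18.7% of all genes passed (9.69% higher and 8.97% lower). The counts were 0 of 9 for normoglycaemic KO against wild type, where 4.79% passed, and 4 of 9 between the KO groups (2 higher and 2 lower), where 19.3% passed. The higher ones were Phkg2 and Ppp1r3b, and the Ppp1r3b signal cannot be tied to its transcript, as described below. Groups did not overlap for 2 of the 9 against wild type (Ppp1r3c and Phka2, 1.46% of all genes) and for 2 of the 9 between the KO groups (Ppp1r3c and Pygl, 9.07% of all genes). For normoglycaemic KO against wild type this count was 0, against 3.83% of all genes. The 9 genes were chosen with earlier results of these data known. These counts, and those of slopes below, are therefore descriptions beside the shares of all genes and not a test.

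**Figure D2:**
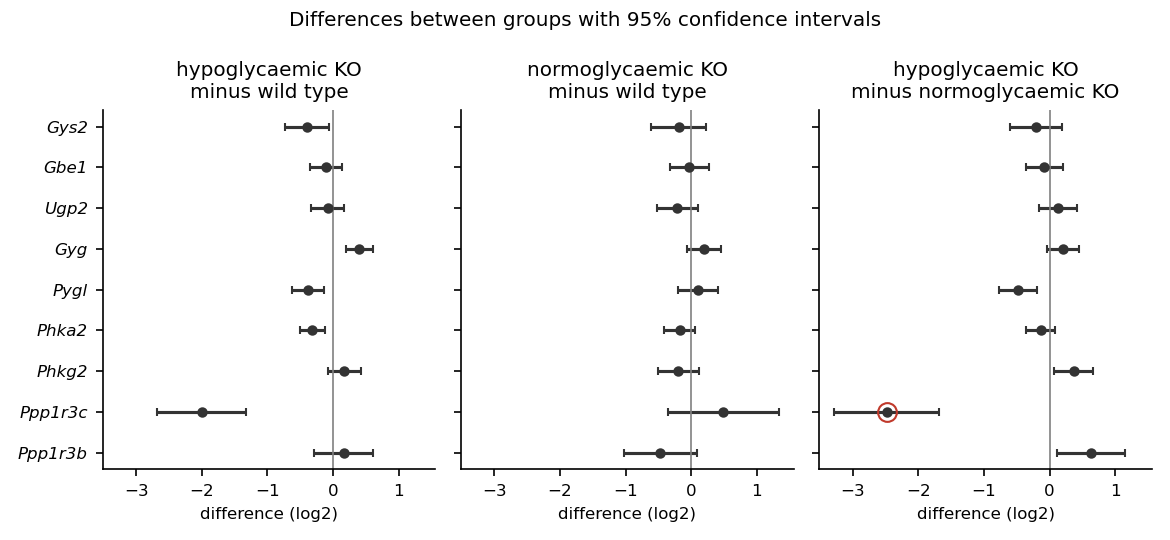
Differences of the 9 genes on the log2 scale in the 3 comparisons, with 95% confidence intervals from limma over 7 hypoglycaemic KO, 3 normoglycaemic KO and 5 wild-type libraries. The ring marks the only call, Ppp1r3c between the KO groups at −2.48, and the vertical line marks no difference.

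Ppp1r3b encodes a targeting subunit abundant in liver, and its value needs a look at the probe. The array carries 1 Ppp1r3b probe, on chromosome 8, 36451115 to 36451174 (mm9), which opens with an unbroken run of GT. The first 30 of its 60 bases are shown with those of Fam219a, Ccdc138 and Itsn1, the 3 genes whose levels followed it most closely, and with those of Ppp1r3c for contrast. Capitals mark runs of at least 3 GT units.
Ppp1r3b (chr8:36451115-36451144, plus strand, mm9): GTGTGTGTGTGTGgtggaagagaatgattt
Fam219a (chr4:41466223-41466252, minus strand, mm9): gcGTGTGTGTGTGTGTGTGTtgtaccccag
Ccdc138 (chr10:58038617-58038646, plus strand, mm9): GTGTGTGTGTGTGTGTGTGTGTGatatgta
Itsn1 (chr16:91913786-91913815, plus strand, mm9): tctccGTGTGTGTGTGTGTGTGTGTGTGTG
Ppp1r3c (chr19:36806487-36806516, minus strand, mm9): gtagatatgaattattttgaatgtgaactg
All 3 genes that followed Ppp1r3b carry such a run, and the Ppp1r3c probe carries none.

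The deviations of Ppp1r3b from its group means over the 15 libraries correlated at 0.996 with those of Fam219a, 0.992 with those of Ccdc138 and 0.991 with those of Itsn1. Among the 144 other tested probes with 5 GT units in a row, the median correlation with Ppp1r3b was 0.96 and 119 exceeded 0.9. Among 26347 probes with neither a GT nor an AC run of that length the median was −0.04 and 13 exceeded 0.9, and among 70 probes with 5 AC units the median was −0.63. For the other 8 genes the longest GT run was at most 4 bases, and their median correlation with the GT probes ran between −0.67 for Pygl and 0.53 for Ugp2. It was −0.53 for Ppp1r3c and 0.50 for Phkg2. Whether the signal that the GT probes share has a part in the differences of these genes was not tested. The comparison with repeat probes was added after the values had been seen. All these correlations are descriptions over libraries of 3 groups that share slides and labelling.

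The Ppp1r3b level had a lowest value of 5.51, a median of 6.18 and a highest value of 6.83 in hypoglycaemic KO livers, against 5.83, 5.32 and 5.35 in normoglycaemic KO livers and 5.69, 5.78, 6.11, 6.35 and 5.94 in wild-type livers. The groups overlapped. The difference was 0.63 with a standard error of 0.24 between the KO groups (limma, adjusted p = 0.180), 0.16 for hypoglycaemic KO against wild type (adjusted p = 0.713) and −0.47 for normoglycaemic KO against wild type (adjusted p = 0.965). The median differences of the 144 GT probes in these comparisons were 0.56, 0.19 and −0.37. The Ppp1r3b transcript and signal that any GT-bearing probe would take up cannot be told apart here.

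**Figure D3:**
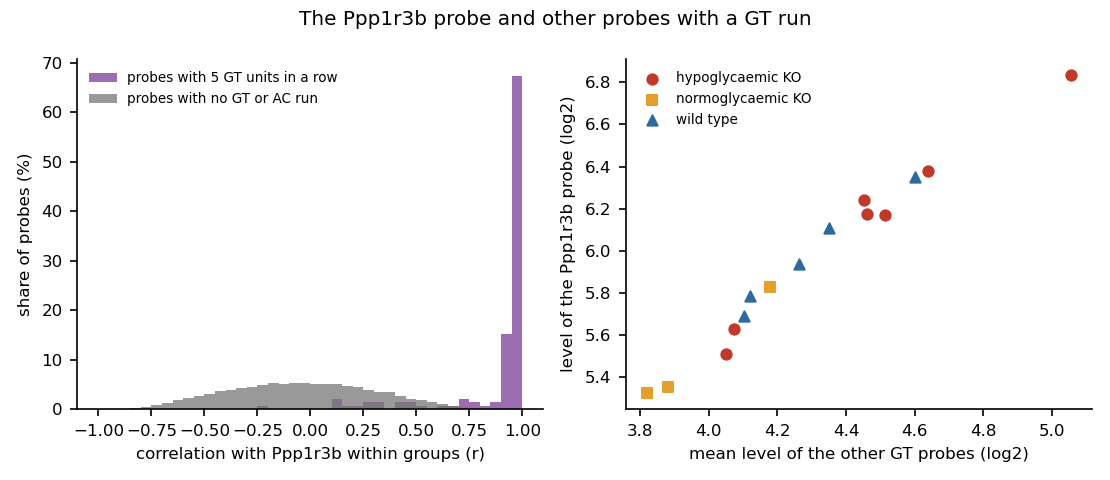
The left panel gives the share of probes, in percent, by their correlation with the Ppp1r3b probe within groups, for the 144 probes with 5 GT units in a row (purple) and the 26347 probes with no GT or AC run (grey). The right panel sets the Ppp1r3b level against the mean level of those 144 probes, both log2, with 1 point per library, and the 15 points lie along 1 line whatever their group.

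The blood glucose of each pup allowed the levels to be read against a measured quantity. With the 3 group means in the fit, the slope of the Ppp1r3c level on glucose was 0.46 per 10 mg/dl with a standard error of 0.12 (limma, adjusted p = 0.0946), which did not pass. At an unadjusted p under 0.05 there were 4 of 9 slopes (Ppp1r3c, Pygl, Gbe1 and Phkg2), against 18.1% of all genes, and 0 of 9 passed the adjusted threshold, against 0.0%. The other 3 slopes were 0.13 for Pygl (adjusted p = 0.204), 0.12 for Gbe1 (adjusted p = 0.266) and −0.17 for Phkg2 (adjusted p = 0.0938). Without hypoglycaemic KO replicate 7, the slopes of Ppp1r3c (0.55, adjusted p = 0.0237), Pygl (0.18, adjusted p = 0.0275) and Phkg2 (−0.20, adjusted p = 0.0294) passed, in a fit that called 3.56% of all genes (981 of 27548). Without any 1 of the other 14 libraries, between 0 and 47 genes were called, and 0 of the 9 among them. Without hypoglycaemic KO replicate 4 the Ppp1r3c slope was 0.32 (adjusted p = 0.292).

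Within the 7 hypoglycaemic KO pups alone, whose glucose ran between 9 and 33 mg/dl, the Ppp1r3c level was lowest in the pup with 9 mg/dl and highest in the pup with 33 mg/dl. Pearson's r was 0.742 (2-sided exact permutation p = 0.0357) and Spearman's rho 0.75 (exact permutation p = 0.0663). Without replicates 4 and 7, the pups farthest from the median glucose, r was 0.924 over 5 pups. The slope was 0.53 per 10 mg/dl with a standard error of 0.19 (limma over all genes, adjusted p = 0.338), and 0 of 9 slopes passed, against 0.0% of all genes. Its size rested on single pups: it was 0.25 without replicate 4, the pup with 33 mg/dl (limma, adjusted p = 0.749), and 0.74 without replicate 7, the pup with 29 mg/dl (adjusted p = 0.180). It was 1 of 9 relations computed; at an unadjusted p under 0.05 it was the only one of the 9, against 13.2% of all genes.

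Over all 15 pups, where group and glucose move together and cannot be told apart, 5 of 9 slopes passed the adjusted threshold, against 16.8% of all genes. The slopes per 10 mg/dl were 0.56 for Ppp1r3c (adjusted p = 0.00177), 0.11 for Pygl (adjusted p = 0.00643) and 0.07 for Phka2 (adjusted p = 0.0373), and −0.09 for Gyg (adjusted p = 0.00897) and −0.08 for Phkg2 (adjusted p = 0.0410). Ppp1r3c, Pygl and Gyg passed in all 15 fits that left out 1 library, Phka2 in 10 of them and Phkg2 in 5. These fits called between 9.18% and 19.9% of all genes. Gys2 passed in 1, without the pup labelled hypoglycaemic KO replicate 2 and its high Mirg level (slope 0.11, adjusted p = 0.0203, against 0.08 and adjusted p = 0.147 over all pups). Without the 3 pancreas-rich libraries the Ppp1r3c slope alone passed (0.61, adjusted p = 0.0312), with adjusted p of 0.0897 for Pygl and 0.0691 for Gyg. Within slide 1 and within slide 2 none of the 9 passed, and the Ppp1r3c slopes there were 0.53 (adjusted p = 0.0748) and 0.61 (adjusted p = 0.159).

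**Figure D4:**
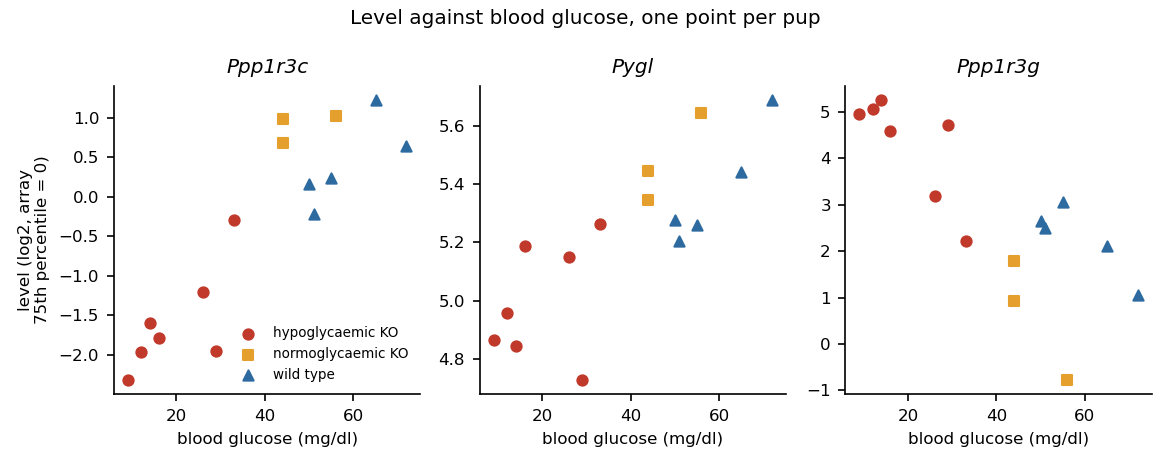
Level of Ppp1r3c, Pygl and Ppp1r3g (log2, array's 75th percentile at 0) against blood glucose in mg/dl, with 1 point per pup of the hypoglycaemic KO, normoglycaemic KO and wild-type groups. Ppp1r3c was lowest, at −2.32, in the pup with 9 mg/dl, and Ppp1r3g was lowest, at −0.78, in the normoglycaemic KO pup with 56 mg/dl.

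A wider list of 39 genes of glycogen handling, glucose phosphorylation and the kinases that act on them gave 35 that were tested apart from the 9. None passed by limma in the comparisons between groups (0.0182%, 0.0% and 0.0545% of all genes did, in the order below), and at an unadjusted p under 0.05 there were 11 for hypoglycaemic KO against wild type (5 higher, 6 lower), 3 for normoglycaemic KO against wild type (1 higher, 2 lower) and 12 between the KO groups (8 higher, 4 lower). Of all genes, 18.7%, 4.79% and 19.3% passed that unadjusted threshold. This list, too, was chosen with earlier results of these data known. The list's median differences were 0.03, −0.004 and 0.07. The genes with the 3 largest differences in each comparison were Ppp1r3g, Gckr and G6pc for both hypoglycaemic KO comparisons, and Ppp1r3g, G6pc and Pgm2 for normoglycaemic KO against wild type.

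Ppp1r3g encodes a further glycogen-targeting subunit of protein phosphatase 1, which in mouse liver is known to be induced by fasting. Its probe is on chromosome 13, 36061999 to 36062058 (mm9), was well above background on all 15 arrays and has no GT run beyond 3 bases. Its level had a lowest value of 2.21, a median of 4.72 and a highest value of 5.26 in hypoglycaemic KO livers, against 0.93, −0.78 and 1.78 in normoglycaemic KO livers and 2.49, 1.06, 2.66, 3.06 and 2.10 in wild-type livers. All 7 hypoglycaemic KO libraries lay above the 3 normoglycaemic KO libraries, and only replicate 4, at 2.21, was within the wild-type range. The difference was 3.64 with a standard error of 0.68, or 12.5-fold, between the KO groups (limma, adjusted p = 0.0648), and 2.01 with a standard error of 0.58 against wild type (adjusted p = 0.116). Its difference for normoglycaemic KO against wild type was −1.63 (adjusted p = 0.965), and −0.92 without normoglycaemic KO replicate 2, the lowest library of all. Without hypoglycaemic KO replicate 4 it was called both between the KO groups (3.99, adjusted p = 0.0154) and against wild type (2.36, adjusted p = 0.0398), and without wild-type replicate 2 it was called between the KO groups (3.64, adjusted p = 0.0404). In these comparisons 3.44%, 1.99% and 1.09% of all genes were called, in that order.

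Along glucose, Ppp1r3g ran opposite to Ppp1r3c. Its slope per 10 mg/dl was −0.94 within groups with a standard error of 0.20 (limma, adjusted p = 0.0606) and −0.70 over all 15 pups (adjusted p = 0.00570). Within groups it passed without hypoglycaemic KO replicate 7 (−1.09, adjusted p = 0.0125), in a fit that called 3.56% of all genes. Its deviations from the group means had a median correlation of 0.63 with those of the GT probes, although its own probe holds no such run.

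G6pc encodes the catalytic subunit of glucose 6-phosphatase, which lets the liver release free glucose. Its level was 7.72 ± 0.39 over 7 hypoglycaemic KO livers, 5.82 ± 0.82 over 3 normoglycaemic KO livers and 6.90 ± 0.50 over 5 wild-type livers (mean ± SD). All 7 hypoglycaemic KO libraries lay above the 3 normoglycaemic KO libraries (difference 1.90, limma, adjusted p = 0.0648). The G6pc difference was called without hypoglycaemic KO replicate 4 (adjusted p = 0.0177) and without wild-type replicate 2 (adjusted p = 0.0334), where 3.44% and 1.09% of all genes were called. Gckr encodes the protein that holds glucokinase in the nucleus when glucose is low. It stood at 3.49 ± 0.53 over 7 hypoglycaemic KO livers, 4.58 ± 0.42 over 3 normoglycaemic KO livers and 4.53 ± 0.31 over 5 wild-type livers (mean ± SD), with a difference from wild type of −1.03 (adjusted p = 0.0887). The Gckr difference was called without the library labelled hypoglycaemic KO replicate 2 (adjusted p = 0.0448), hypoglycaemic KO replicate 4 (adjusted p = 0.0497) or wild-type replicate 1 (adjusted p = 0.0479). Those fits called 0.501%, 1.99% and 2.72% of all genes, in that order. Pgm2, a phosphoglucomutase, differed by −0.51 between normoglycaemic KO and wild-type livers (adjusted p = 0.965). Its level was −1.26, −1.45 and −1.48 in normoglycaemic KO livers, against −1.33, −0.67, −1.26, −1.29 and 0.11 in wild-type livers. Wild-type replicate 5 stood above the rest, and without it the difference was −0.26 (adjusted p = 0.976).

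Over all 15 pups, 12 of the 35 genes had a slope on glucose that passed, against 16.8% of all genes. The positive slopes per 10 mg/dl included 0.28 for Gckr, 0.14 for Pygb, the brain form of the phosphorylase, 0.11 for Prkag2, a regulatory subunit of the AMP-activated kinase, 0.09 for the hexokinase Hk3 and 0.05 for Ppp1ca, a catalytic subunit of protein phosphatase 1. The negative ones were −0.70 for Ppp1r3g, −0.31 for G6pc, −0.21 for Slc37a4, the glucose 6-phosphate transporter of the endoplasmic reticulum, −0.17 for Gys1, the muscle form of the synthase, −0.09 for Ppp1cc, a further catalytic subunit, and −0.07 for Gaa, the lysosomal glucosidase. Both genes of the glucose 6-phosphatase system, G6pc and Slc37a4, thus had negative slopes. In the 15 fits that left out 1 library, the slopes of Gckr, Ppp1r3g, Slc37a4 and Ppp1cc passed every time, those of G6pc, Pygb and Prkag2 in 14, and that of Gaa in 13. Those of Gys1 (4 fits), Hk3 (3 fits) and Ppp1ca (3 fits) were lost in most of them. With the group means in the fit, 0 of the 35 passed.

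Within groups, the 9 genes did not vary as 1 block. Over the 36 pairs of members, the strongest correlations of deviations from the group means over 15 libraries were −0.85 between Pygl and Phkg2, 0.68 between Pygl and Ppp1r3c and −0.67 between Pygl and Ppp1r3b. The Ppp1r3b value touches the GT run described above. The SD within groups was 0.57 for Ppp1r3c, above that of 83.3% of all genes, and between 0.14 for Phka2 and 0.37 for Ppp1r3b in the other 8, where the median of all genes was 0.25.

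Outside the 9, the genes whose deviations were most like those of a member were looked for among 14762 genes well above background on all 15 arrays. For Ppp1r3c they were Exosc3 (r = 0.966), Igsf11 (r = 0.909) and Zbtb45 (r = 0.898). For Pygl they were Stxbp6 (r = 0.967), Galm (r = 0.958) and Slc39a5 (r = 0.949), and for Gys2 they were Tmem221 (r = 0.890), Llcfc1 (r = 0.880) and Gml2 (r = 0.856). Picking the highest of 14762 correlations over 15 libraries favours high r by itself, and these values were not tested. In their differences between groups, 0 of these 9 genes passed by limma. Between hypoglycaemic KO and wild-type livers Exosc3 differed by −0.25 (adjusted p = 0.309), Igsf11 by −0.40 (adjusted p = 0.438) and Zbtb45 by −0.23 (adjusted p = 0.337). Stxbp6 differed by −1.25 (adjusted p = 0.103) in that comparison and by −1.49 between the KO groups (adjusted p = 0.0984).

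RefSeq promoter windows were found for 7 of the 9 genes. The search for the 5 motifs named above, on both strands, found 1 match in addition to the Ppp1r3c E-box. It was a glucocorticoid half-site (AGAACA) in the Phka2 window, beginning 153 bases before the start site, a hexamer that 16.1% of all windows hold.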

How the data were processed

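Each library was 1 single-colour (Cy3) array of liver RNA from 1 pup. The intensity values (gProcessedSignal, and the mean, median and local background signals) came from Agilent Feature Extraction 10.10, per the file headers, with background subtraction within the array and no scaling between arrays. The authors' deposited log2 values, made with limma per the submitters' processing notes, cover 40048 probes, have column medians of 7.80 and correlate at 0.99986 to 0.99999 with log2 of the median signal. Their background treatment and centring stay unknown, and they served as an alternative.

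Control spots (3671 of 62976) and spots flagged as outliers (176 to 546 per array) were left out, 0 spots were saturated, and spots of 1 probe were averaged. The signal was divided by the array's 75th percentile (663 to 912) and taken to log2. Probes well above background on at least 3 arrays with at least 2 values per group were kept, 1 probe per gene (highest mean). Of 55681 probes, 27235 were named through their accession, 3581 as a current symbol, 565 through a synonym and 24300 by the file's name. limma 3.58.1 (lmFit, eBayes; R 4.3.3) fitted 3 group means, or a slope on blood glucose, with 12 residual and 1.84 prior degrees of freedom for the group means. Benjamini-Hochberg adjustment ran over all genes of a comparison, with a threshold of 0.05. Exact permutation tests were 2-sided. Files were read in Python 3.11.15 (pandas 2.3.3, numpy 2.4.6), exact tests used scipy 1.17.1 and plots matplotlib 3.10.9. Tested on simulated data of the same group sizes, the fit for hypoglycaemic KO and wild type called 89.4% of 4-fold and 41.8% of 1.5-fold changes, with 7.3% of its calls false, and that for normoglycaemic KO and wild type called 80.3% and 28.4%, with 2.7% false. The simulated noise was normal and independent between genes, whereas real probes shared variation between libraries, as the GT probes did. These percentages therefore need not hold for the real libraries. The number of arrays limits the precision.

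The 9 genes, the wider list, the markers and the motifs were chosen with earlier results of these data known. All 9 were to be named; of the wider list, the genes that passed or, failing that, the 3 largest differences per comparison; and for Gys2, Pygl, Ppp1r3c and Ppp1r3b the 3 most alike genes. Of 39 wider genes, Epm2a, Gyg1, Ppp1r3a and Ppp1r3e were not tested apart. A gene of the wider list that passed is not reported here by name. Alternatives were other background correction, scaling, filters, blocks for slide, slide row and replicate number, Ddx3y as a covariate, other probes, and leaving out libraries. Of 11 same-numbered pairs of libraries, 6 correlated above 0.1 (range −0.17 to 0.32). Pairs of unlike number were not computed, so whether replicate numbers pair the libraries was not settled.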

Additional observations from a re-analysis of the deposited data

How the results depend on the processing

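Of 1518 alternative estimates for the 9 genes over 34 settings, 1412 kept their direction and their side of the threshold, 16 came to pass it, 54 ceased to pass it and 36 turned in sign. Part of the 1412 could not change. A slope within hypoglycaemic KO uses no library of the other groups, so leaving one of those out altered nothing. Likewise, a difference between 2 groups kept its size when a library of the remaining group was left out. The count thus overstates how stable the estimates are. For hypoglycaemic KO against wild type, 1 of the 9 genes passed, Ppp1r3c, under normexp (−1.72), the authors' log2 values (−1.85), a filter on all arrays (−1.997) and slide row as a block (−1.99); without single libraries 0 to 2 passed, and its difference ran between −2.21 and −1.79. Between the KO groups 0 passed under no filter (Ppp1r3c −2.48, adjusted p = 0.0712), slide as a block (−2.49, adjusted p = 0.0600), within slide 1 (−2.44, adjusted p = 0.535), within slide 2 (−2.57, adjusted p = 0.372) and without the pancreas-rich libraries (−2.36, adjusted p = 0.340), a set marked by a mean acinar level above 0 that was chosen after the values had been seen; without single libraries 0 to 2 passed (−2.70 to −2.36). The slide subsets and the set without pancreas-rich libraries hold fewer libraries, and the filters change how many genes are tested; for the other settings the cause was not tested. For the slope within groups, 0 to 3 passed without single libraries. For the slope over all pups, where 5 passed, 3 passed with no filter, 3 with slide row, 0 within slide 1, 0 within slide 2, 1 without the pancreas-rich libraries and 3 to 5 without single libraries. With the replicate number as a block, 0 passed between the KO groups (Ppp1r3c −2.81, adjusted p = 0.0810) and 3 for the slope over all pups. Whether that number pairs these libraries was not settled. Leaving out 1 library moved the calls among all genes between 0 and 750 for hypoglycaemic KO against wild type, between 0 and 947 between the KO groups and between 0 and 981 for the slope within groups, so that calls near the threshold rest on single libraries.

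The estimates that turned in sign were at most 0.153 in size, and none had passed. For hypoglycaemic KO against wild type they were those of Ugp2 within slide 1 (0.0355) and without single libraries (−0.143 to 0.00261). For normoglycaemic KO against wild type they were Gys2 within slide 2 (0.0211), the other Phka2 probe (0.0712) and Gbe1 with the authors' values (0.00463), within slide 1 (0.0764), with Ddx3y as a covariate (0.0169), at its other probe (0.0136) and without single libraries (−0.143 to 0.0448). Between the KO groups they were Gys2 within slide 1 (0.0201) and Gbe1 within slide 2 (0.0977), without the pancreas-rich libraries (0.0539) and without single libraries (−0.150 to 0.0385). Among slopes within groups they were Gys2 with the authors' values (0.00398), within slide 2 (0.153), with Ddx3y (0.141) and without single libraries (−0.0471 to 0.0282), and Phka2 with slide row as a block (−0.00604) and without single libraries (−0.000183 to 0.0428). Among slopes within hypoglycaemic KO they were the other Gbe1 probe (−0.00979), Ugp2 without the pancreas-rich libraries (0.0282) and, without single libraries, Gys2 (−0.121 to 0.0247), Pygl (−0.00606 to 0.158), Ppp1r3b (−0.344 to 0.0175) and Ugp2 (−0.0835 to 0.0282). Over all pups they were Ugp2 within slide 2 (0.0210), with the replicate block (0.000272), without the pancreas-rich libraries (0.0276) and without single libraries (−0.0172 to 0.0137).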

Other observations

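In 18 sets (9 genes in the 7 hypoglycaemic KO and in the 5 wild-type libraries), 0 held a library beyond Dixon's limit for a value far from the rest. The normoglycaemic KO libraries were not among these sets.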
